A study of Mus musculus with 2 samples.

Results

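The genes described here are 10 C-type lectin receptor genes, gathered by name as lectins found outside cDC1: Cd209a, Cd209d, Clec10a, Clec12a, Clec7a, Clec4a1, Clec4a2, Clec4a3, Clec4a4 and Clec4n. The raw tables hold 17751 gene symbols, and 9 of the 10 were among them. Clec7a, the gene of dectin-1, was not analysed here. CITE-seq, which reads transcripts and antibody barcodes in the same cells, had been run on splenocytes depleted of T and B cells and sorted for MHCII and CD11c. The WT library came from female C57BL/6 mice aged 8 weeks and the other library from Batf3-/- mice of the same sex and age. The Batf3-/- mice, also C57BL/6, lack the transcription factor gene Batf3 in all cells. They were bred in house while the WT mice came from a supplier, so colony and genotype cannot be told apart. The labels give no treatment, and the splenocytes of each genotype were pooled. Each genotype is therefore 1 library without a biological replicate, and no test between genotypes was possible.

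C-type lectin receptors bind sugars and other ligands on microbes, dead cells and host proteins, and dendritic cells (DCs) use them to take up antigen and to set how strongly they respond. Some carry an inhibitory motif (ITIM) in their tail that recruits phosphatases such as SHP-1. Others associate with the adaptor FcRγ and signal through the kinase Syk and the Card9, Bcl10 and Malt1 complex. In the mouse spleen, conventional DCs are divided into cDC1, which need Batf3 and carry the lectin Clec9a, and Sirpa+ cDC2.

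Levels are given as the summed unique molecular identifiers (UMIs) of a gene in a cluster and library per 1000000 UMIs of those cells (CPM), with an exact Poisson 95% interval. The reads come from transcript 3′ ends, so levels are compared between cells and not between genes. The WT library held 12224 cells and the Batf3-/- library 12119, with a median of 8374.5 and 8516 UMIs per cell, and 56 barcodes occurred in both. Batf3 was at 206 CPM in the WT library and at 2.49 CPM in the Batf3-/- library. Cells carry the 20 clusters that the authors deposited (C0 to C19), and the names used here are the study's. Of these, C4, C6, C12, C17 and C18 are cDC1, and 9 clusters were pooled as Sirpa+ (C0, C1, C2, C3, C5, C7, C8, C10 and C11). C4 held 2202 WT and 31 Batf3-/- cells, C12 held 394 and 31, and C17 and C18 held at most 2 Batf3-/- cells each. C6, the mitotic cDC1 cluster, held 797 WT and 727 Batf3-/- cells. The names were checked against marker genes where a lectin result turns on them. The C14 pDCs had Siglech at 1927 and 2148 CPM in the WT and Batf3-/- libraries and Ly6d at 3946 and 4004. The C3 Sox4+ cDCs had Sox4 at 533 and 574 CPM. The C15 monocytes had Ly6c2 at 239 and 917 CPM, but the summed level of 4 neutrophil genes was also high there, at 9251 and 19927 CPM. That sum was mostly S100a8 (3742 and 8490 CPM) and S100a9 (5451 and 11428 CPM). The other genes of the list were low, with Ly6g at 5.23 and 4.59 CPM and Retnlg at 52.3 and 4.59 CPM. In C11, called mature cDC2b, the 5 macrophage genes summed to 2334 and 1856 CPM.

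On the mouse genome build GRCm38, 6 of the 9 measured genes lie on chromosome 6. Clec4a1, Clec4a3, Clec4a4, Clec4a2 and Clec4n follow each other in this order on the plus strand between 122921848 (the start of Clec4a1) and 123247021 (the end of Clec4n). Clec12a lies further along at 129342691 to 129365303, and Clec9a starts beyond it at 129408862. The genes Cd209a (3743397 to 3748984) and Cd209d (3871824 to 3878555) lie on the minus strand of chromosome 8. Clec10a lies on chromosome 11 at 70156197 to 70170834, next to its paralog Mgl2.

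Every one of the 9 genes had its highest WT level in a cluster outside cDC1, as did 75.2% of all 10511 genes that reached 10 CPM in a WT cluster. The 9 genes did not share that cluster. Cd209a was highest in C2, Cd209d and Clec12a in the pDCs, Clec10a and Clec4a4 in C16, Clec4a1 and Clec4a3 in the monocytes, and Clec4a2 and Clec4n in C11. The order at the top was clear for some genes and not for others. The intervals of the first and second cluster overlapped for Clec10a, Clec4a2 and Clec4a4 in both libraries.

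**Figure D1:**
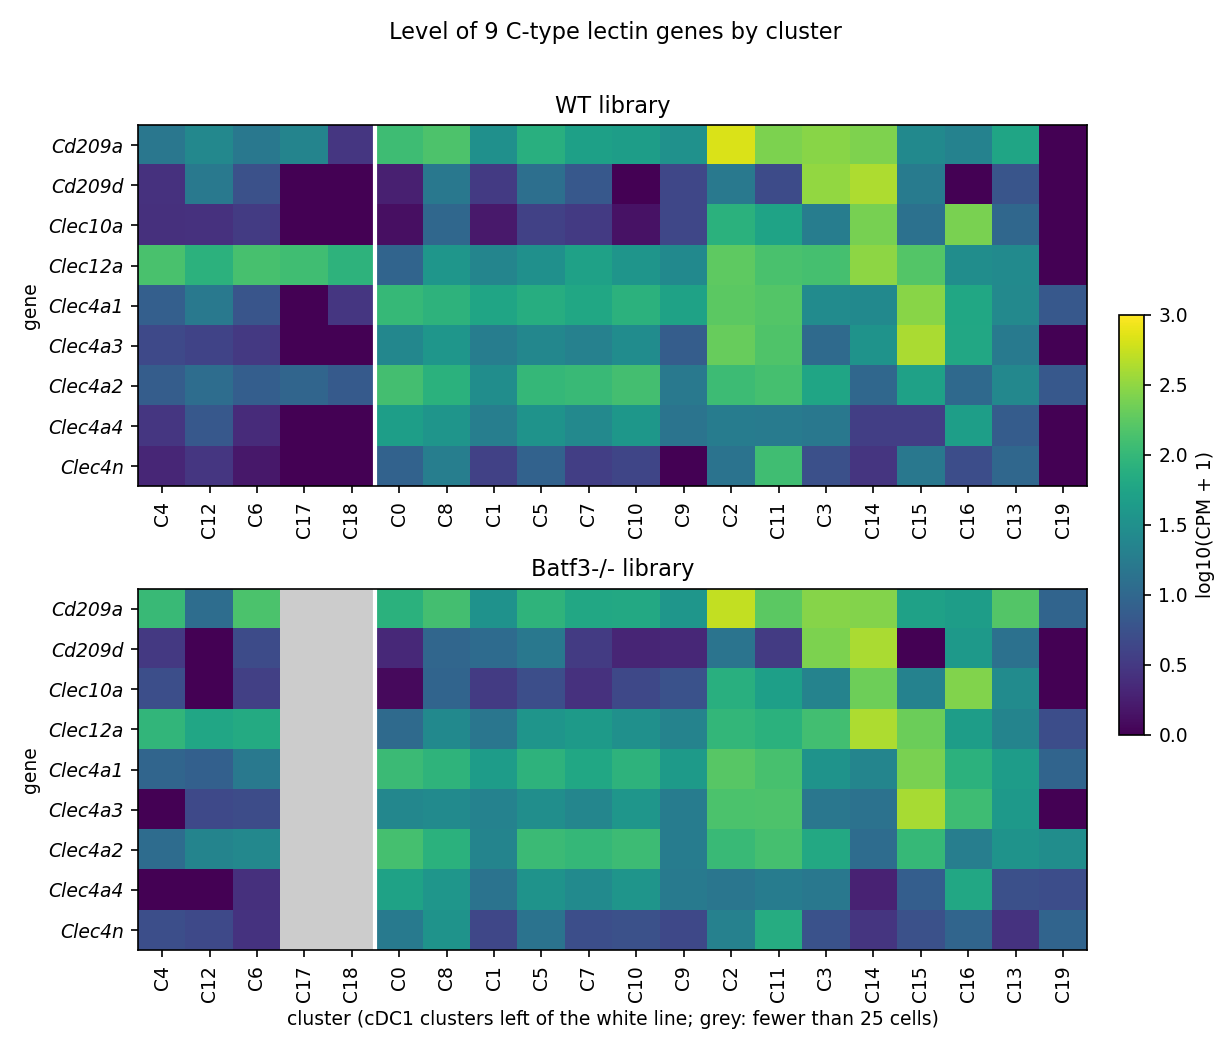
Colour gives log10(CPM + 1) of each of the 9 lectin genes (rows) in each cluster (columns), WT library above and Batf3-/- library below, with cDC1 clusters left of the white line and clusters of fewer than 25 cells in grey. Cd209a peaks in C2, Cd209d in C14 and C3, Clec4n in C11, and only Clec12a is at a high level across the WT cDC1 clusters.

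Cd209a is one of the mouse relatives of human DC-SIGN, a mannose- and fucose-binding receptor. It was at 669 CPM (652 to 687) in WT C2 (cDC2b) and at 524 CPM (513 to 536) in Batf3-/- C2. The next clusters in WT were C3 at 289, C14 at 259 and C11 at 257 CPM, whose intervals overlapped. C8 followed at 145 and C0 at 116 CPM. C2 stood well above all other clusters in both libraries. When each cell was thinned to 1000 UMIs, a Cd209a UMI was found in 36.3% of WT and 31.2% of Batf3-/- C2 cells, against 66.1% and 68.4% without thinning. In C13 cells labelled T or NK, which should lack the gene, the thinned share was 0.699% of 143 WT cells and 0 of 62 Batf3-/- cells.

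Cd209d belongs to the same gene family and had a much narrower range. Its level was 425 CPM (393 to 458) in WT C14 and 413 CPM (375 to 454) in Batf3-/- C14. In C3 it was 327 CPM (313 to 341) in WT and 253 CPM (245 to 261) in Batf3-/- cells. No other WT cluster passed 16.6 CPM, the level in C15, and in C2, where Cd209a peaked, Cd209d was at 15.3 and 13.3 CPM. The pDCs and Sox4+ cDCs thus stood apart from every other cluster. Some of the small amounts elsewhere came from few cells. In Batf3-/- C1 the level was 10.1 CPM against 2.21 in WT, and 5 cells held 70.5% of those UMIs. In Batf3-/- C16 it was 40.8 CPM from 6 cells, while WT C16 had no UMI.

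Within C3, Cd209d was found more often in cells with a Cd209a UMI than in cells without one. After thinning to 2000 UMIs, 48.7% (41.5 to 56.0, exact binomial 95% interval) of the 193 WT C3 cells with a Cd209a UMI also had Cd209d, against 7.05% (4.98 to 9.62) of the 511 cells without one. In the Batf3-/- library these shares were 40.3% and 9.52%. Clec10a followed the same cells in Batf3-/- C3, at 8.87% of those with Cd209a and 0.979% of those without. Some members of the Clec4a group went the other way there. Clec4a1 was found in 3.36% of Batf3-/- C3 cells with Cd209a and in 7.47% without, and Clec4a2 in 5.82% of those with Cd209d and in 12.8% without. Clec4a3 was at 2.88% with Cd209a and 2.40% without. Clec4a1 and Clec4a2 in turn fell together in this library, with Clec4a2 in 24.5% of Clec4a1 cells and 10.7% of the others. In WT C3, Clec4a1 was in 4.15% of cells with Cd209a and 4.70% without, and Clec4a2 in 5.38% with Cd209d and 12.5% without. Clec4a2 was in 6.25% of the 32 WT cells with Clec4a1 and in 11.5% of the rest. Each of these WT pairs of intervals overlapped. Of the 28 pairs of genes compared in Batf3-/- C3, 4 were found together more often and 4 less often without overlap of the intervals. In WT C3, with fewer cells, 1 of 15 pairs was higher and 0 were lower. The share over all pairs of genes in C3 was not counted, so these counts have no background beside them. Each pair was counted from 1 gene to the other only. Read the other way, none of the 22 WT C3 cells with Clec4a4 had Cd209d (0 to 15.4%), against 19.1% (16.2 to 22.2) of the rest. The clusters were built on the same transcripts and the cells of 1 library are not replicates, so these shares describe the cells of each library.

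**Figure D2:**
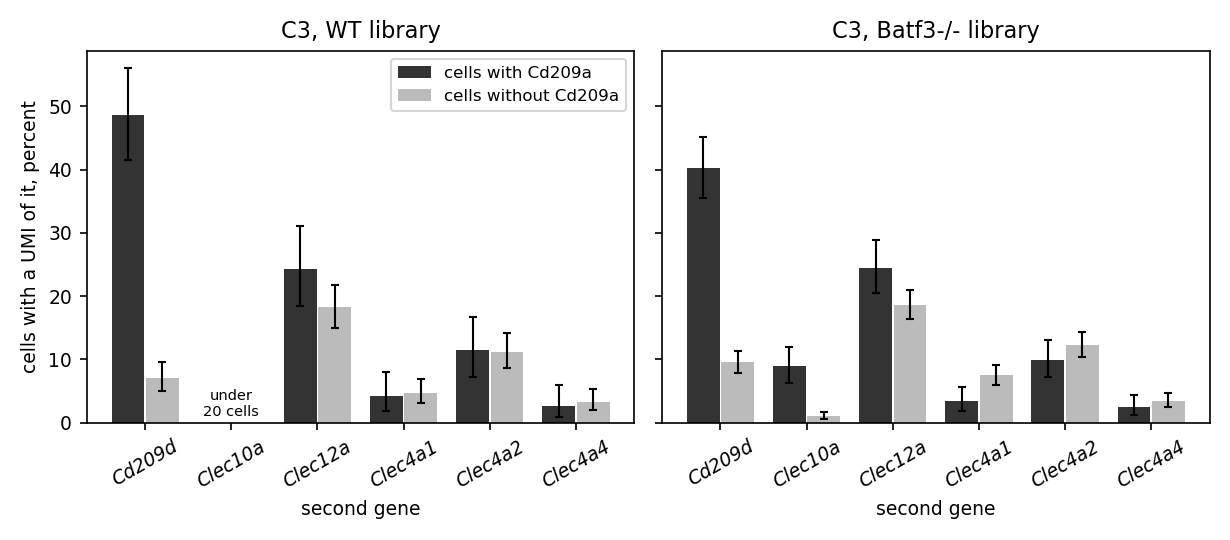
Bars give the percent of C3 cells with a UMI of each second gene among cells with (dark) and without (light) a Cd209a UMI, after thinning to 2000 UMIs per cell, WT left and Batf3-/- right, with exact binomial 95% intervals. Cd209d stands at 48.7% against 7.05% in WT and at 40.3% against 9.52% in Batf3-/- cells.

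Clec10a (MGL1) binds galactose-type sugars and marks a subset of cDC2. It was at 248 CPM (213 to 286) in WT C16, a small cluster that the study calls mixed, and at 243 CPM (219 to 269) in WT pDCs. The Batf3-/- levels were 266 CPM in C16 and 218 CPM in C14. After these came C2 at 82.4 and 76.9 CPM, C11 at 54.2 and 48.5, and C3 at 17.7 and 21.0, WT first. Within C16 the signal was uneven, since 5 cells held 48.6% of the WT and 47.6% of the Batf3-/- UMIs. In the pDCs 5 cells held 14.8% and 22.9%, and 81.2% and 70.3% of unthinned pDCs had a UMI. The large cDC2a cluster C0 had 0.321 and 0.183 CPM, from 7 and 4 UMIs. Clec10a shares 21.8% of the 31-base words in its last 500 transcript bases with Mgl2. A read within these words fits both neighbours, and the effect on the counts was not tested. In C2, Clec10a and Cd209a were read in the same cells, with Clec10a in 18.2% of WT cells with Cd209a and in 5.31% without, and in 14.7% and 6.41% in the Batf3-/- library.

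The Clec4a genes encode the DCIR group. Clec4a2 (DCIR1) and Clec4a4 (DCIR2) carry an ITIM, and Clec4a4 is the receptor used to target the cDC2 of the spleen. Clec4a1 (DCIR4) and Clec4a3 (DCIR3) are close relatives. Clec4a1 was highest in the C15 monocytes, at 292 CPM (262 to 325) in WT and 245 CPM in Batf3-/- cells, followed by C2 at 174 and 164, C11 at 155 and 132, and C0 at 101 and 109 CPM. Clec4a3 was also highest in C15, at 414 and 408 CPM, followed by C2 at 200 and 142 and C11 at 150 and 143 CPM. Unlike Clec4a1, it was low in C0, at 23.2 and 23.5 CPM. Over 19 WT clusters of at least 50 cells, the log2(CPM + 1) values of Clec4a1 and Clec4a3 had a Pearson r of 0.92, the highest among the pairs of the 9 genes, and 0.88 over 15 Batf3-/- clusters. In C2, 38.2% of WT cells with Clec4a1 had Clec4a3 against 26.6% without, and 31.04% against 23.0% in the Batf3-/- library.

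Because these neighbouring genes had the most similar levels across clusters, their upstream sequences were compared. RefSeq windows of 250 bases before to 50 after the start were on hand for 6 of the 9 measured genes, not for Clec4a4, Clec10a or Clec4n. Clec4a1 and Clec4a3 gave the highest local alignment score of all pairs of genes, 67 against 37 for the next pair, Cd209a with Cd209d. They share a stretch with 48 identical bases in 55 aligned columns, shown on the plus strand of GRCm38.p6 with the identical bases in capitals. It lies 234 to 182 bases before the RefSeq start of Clec4a1 (chr6:122921614-122921666) and 68 to 16 bases before that of Clec4a3 (chr6:122952576-122952628), outside annotated exons in both. The GENCODE span of Clec4a3 starts further upstream, at 122952515, so the Clec4a3 stretch lies before the RefSeq start but within the GENCODE gene, between its exons.
Clec4a1: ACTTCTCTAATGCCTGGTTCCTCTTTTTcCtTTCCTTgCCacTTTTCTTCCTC
Clec4a3: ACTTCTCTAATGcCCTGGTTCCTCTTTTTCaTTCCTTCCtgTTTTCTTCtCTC
The motif GAGGAA, the core of sites bound by PU.1, reads TTCCTC on this strand. It was searched on both strands of the 250 upstream bases and occurred in 4 of the 7 windows of these genes, and in 23.3% of all 32851 windows. A match is a description of the letters only.

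Clec4a2 was highest in a group of Sirpa+ clusters, at 128 CPM in both libraries in C11, 127 and 129 in C0, 125 and 113 in C10, 112 and 106 in C2, and 106 and 97.5 in C7. These intervals overlapped from each WT cluster to the next. Other Sirpa+ clusters were lower, with C3 at 56.4 and 64.4 CPM and C1 at 28.8 and 21.3 CPM. In the C15 monocytes Clec4a2 was at 51.5 CPM from 59 UMIs in WT and at 101 CPM from 44 UMIs in Batf3-/- cells. Clec4a2 shares 14.03% of its terminal 31-base words with other genes, among them Clec4a3 and Clec4a4, and the effect on its counts was not tested. Clec4a4 was highest in C16 at 47.3 and 62.2 CPM and in C0 at 46.8 and 51.8 CPM, followed by C10 at 37.8 and 35.8 and C8 at 35.2 and 37.1. In the C15 monocytes it was at 2.62 and 6.88 CPM, from 3 UMIs in each library, and in the pDCs at 2.56 and 0.959 CPM. Clec4a3, its neighbour on the chromosome, was at 414 CPM in WT C15 and at 23.2 CPM in WT C0.

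Clec4n (dectin-2) binds fungal mannans and pairs with FcRγ. It was concentrated in C11, at 119 CPM (104 to 136) in WT and 71.9 CPM (61.9 to 83.1) in Batf3-/- cells. The second cluster, C8, was at 18.3 and 34.0 CPM. The share of C11 cells with a UMI did not separate the libraries, at 39.4% of WT and 36.3% of Batf3-/- cells before thinning. Thinned to 1000 UMIs the shares were 10.3% (6.30 to 15.6) and 4.88% (2.55 to 8.37), and a second random draw gave 7.57% and 7.72%. A single WT cell held 18.3% of the C11 UMIs and 5 cells held 40.8%, against 9.78% and 23.9% in the Batf3-/- library. The 5 macrophage genes of C11, which summed to more in WT, included C1qa (986 and 737 CPM) and Vcam1 (242 and 192 CPM), while Adgre1 was at 110.02 and 113 CPM. The 4 neutrophil genes summed to 92.1 CPM in WT C11 and were all at 0 in Batf3-/- C11. The part of either list in the Clec4n difference was not tested.

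Clec12a went against the description of these genes as lectins outside cDC1. It encodes an inhibitory receptor for uric acid crystals and dead cells. To ask how far the genes lie outside cDC1, resting cDC1 (C4) of the WT library were set against the pooled Sirpa+ clusters of the same library. Of the 7 lectins that passed a filter of 10 CPM and 20 UMIs, 6 were at least 2-fold lower in C4. Of the 7175 genes that passed it, 11.8% were lower by that much. All of the 6 but Cd209a were below 10 CPM in C4 and passed only through the pool, which favours such a call. The genes were also gathered as lectins outside cDC1, and the clusters were built on these transcripts. The count is therefore a description and cannot test the name. Counting the genes below the filter as well, 8 of the 9 were lower. Clec12a was the other one, and 4.95% of genes were at least 2-fold higher in C4. It was at 138 CPM (134 to 142) in C4 and 57.0 CPM in the Sirpa+ pool, a log2 ratio of 1.27 (1.21 to 1.33). The WT levels in the other cDC1 clusters were 134 in C6, 84.2 in C12, 120 in C17 and 86.6 CPM in C18. In the cDC2a cluster C0 it was only 8.25 CPM. Outside cDC1 it was highest in pDCs, at 312 CPM in WT and 422 in Batf3-/- cells, followed in WT by C2 at 179 and C15 at 156 CPM. Thinned to 1000 UMIs, 12.4% of WT C4 cells and 0.661% of WT C0 cells had a UMI, against 2.10% of the WT T or NK cells.

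The other 8 genes were low in C4. Cd209a was at 14.7 CPM against 191 in the Sirpa+ pool, a log2 ratio of -3.70 (-3.83 to -3.57). Cd209d was at 1.67 against 37.3 CPM, with a log2 ratio of -4.48, which was the lowest of the 9. Clec10a and Clec4n were the nearest to 0 of the lower genes, at -3.25 and -3.32. The DCIR genes lay between -3.98 for Clec4a4 and -3.70 for Clec4a1. All 8 fell below -1.82, the 5% point over all genes. After thinning, 1.32% (0.884 to 1.89) of C4 cells had a Cd209a UMI. This interval overlapped that of the T or NK cells (0.0177 to 3.83). The shares of the other 7 genes in C4 ran from 0.0454% for Clec10a to 0.772% for Clec4a1. Their intervals also overlapped those of the T or NK cells. The T or NK group held only 143 WT cells, so its intervals are wide. This overlap therefore cannot decide whether such low shares exceed background.

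**Figure D3:**
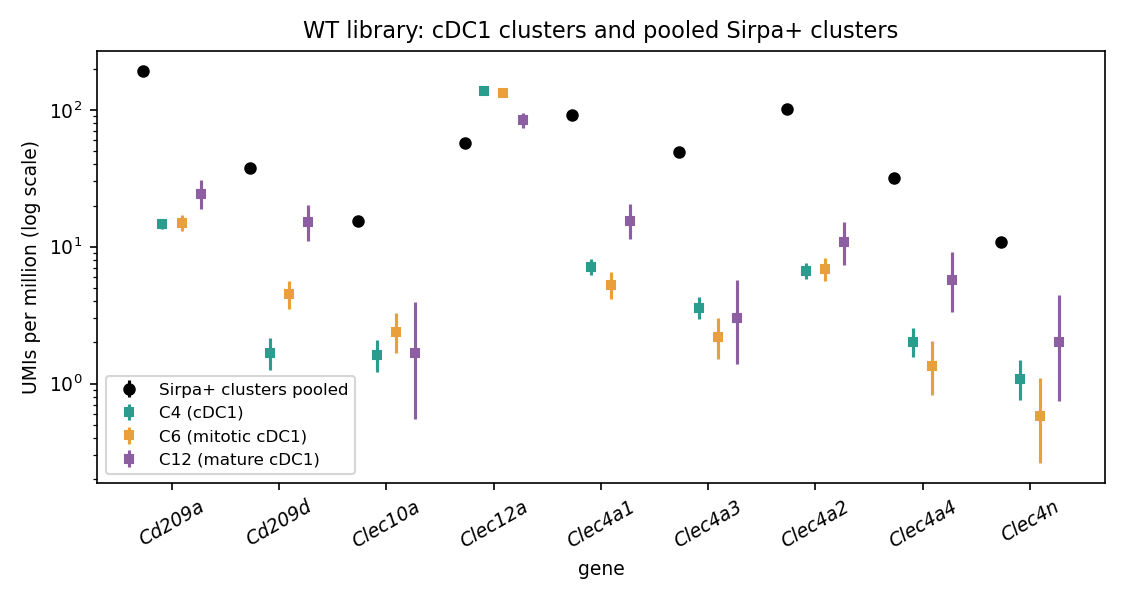
Points give the WT level in CPM on a log scale for the pooled Sirpa+ clusters (black circles) and for cDC1 clusters C4, C6 and C12 (squares), with exact Poisson 95% intervals. Clec12a is at 138 CPM in C4 against 57.0 in the Sirpa+ pool, while the other 8 genes lie below the pool in all 3 cDC1 clusters.

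C6 is the cDC1 cluster that both libraries fill, so the libraries were compared in it. Its cells were not alike in cDC1 markers. Xcr1 was at 397 CPM in WT and 45.7 CPM in Batf3-/- cells, and 6 cDC1 genes summed to 2249 and 466 CPM. The study describes the genotypes as distinct populations in C6 and calls the Batf3-/- cells cDC1-like. The part of this difference between the cells in the lectin ratios was not tested. In C6, Cd209a was at 14.9 CPM (13.04 to 16.9) in WT and 139 CPM (133 to 146) in Batf3-/- cells. This was 9.36-fold higher, with a log2 ratio of 3.23 (3.03 to 3.43). Clec4a2 was at 6.84 and 24.3 CPM (log2 ratio 1.83, 1.51 to 2.16), and Clec4a1 at 5.24 and 15.5 CPM (1.57, 1.19 to 1.95). Clec4n was at 0.575 and 1.78 CPM, from 9 and 24 UMIs. Clec12a was lower instead, at 134 CPM (128 to 140) in WT and 67.2 CPM (62.9 to 71.7) in Batf3-/- cells, a log2 ratio of -0.99 (-1.11 to -0.88). Of the 4 lectins that passed the filter, 3 (Cd209a, Clec4a1 and Clec4a2) were at least 2-fold higher in the Batf3-/- library and 0 were 2-fold lower, where 1.97% of 7045 genes were higher and 2.14% lower by that much. Over all 9 genes the count was 4, with Clec4n from below the filter. Over those genes the ratios ran from -0.55 (5% point) to 0.59 (95% point), and all 4 lectins that passed (with Clec12a) fell outside. The intervals of Cd209d, Clec10a and Clec4a4 included 0, at log2 ratios of -0.24, 0.18 and 0.28, from 21 to 70 UMIs per gene and library. Clec4a3, also below the filter, was at 2.17 and 3.94 CPM from 34 and 53 UMIs, WT first (0.86, 0.21 to 1.52).

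The cell cycle differed between the libraries in C6, with 1.63% of WT and 26.0% of Batf3-/- cells in G1. Within S and G2M cells the Cd209a levels were 12.4 and 120 CPM, a log2 ratio of 3.27, and the ratio of Clec12a was -1.04. Within G1, where WT had only 13 cells, Cd209a was at 209 and 219 CPM, a log2 ratio of 0.07 (-0.38 to 0.56), and both levels were above those of the cycling cells. The direction turned in G1 for Clec4a1 (-0.64, -1.86 to 0.87) and Clec4a2 (-0.21, -1.32 to 1.15), from 6 and 7 WT UMIs. Cd209d was at 39.8 and 2.63 CPM in G1, from 8 and 7 UMIs, a log2 ratio of -3.92 (-5.61 to -2.26). Within G1, 0 of the 9 genes were at least 2-fold higher and 3 were 2-fold lower in the Batf3-/- library (Cd209d, Clec10a and Clec4a3, from 1 to 8 WT UMIs). The share of all genes past 2-fold within G1 was not counted, so these counts have no background beside them.

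**Figure D4:**
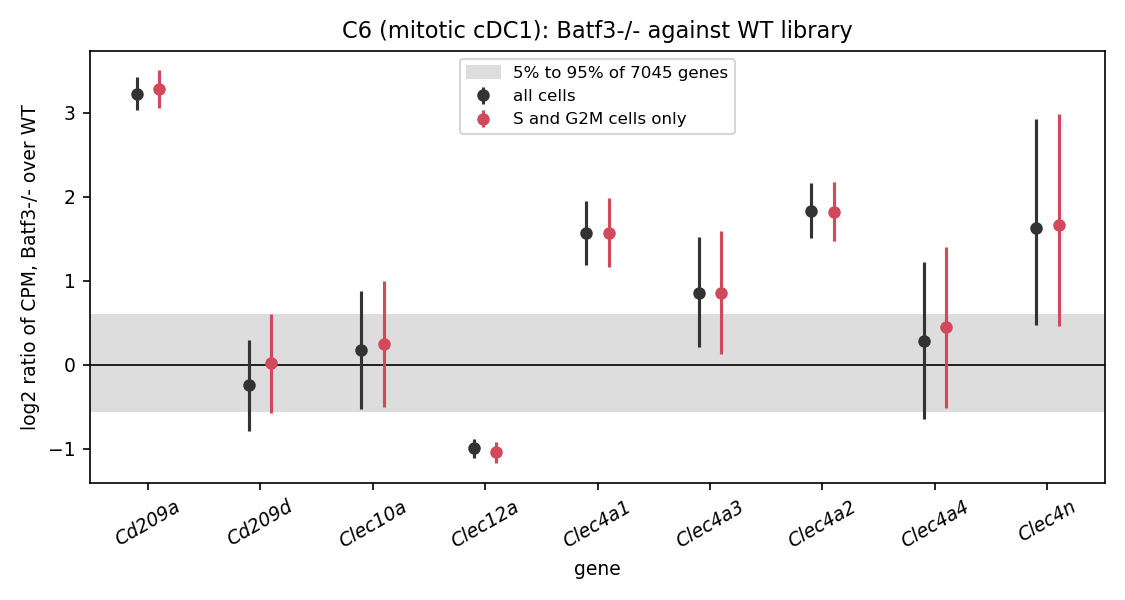
Points give the log2 ratio of CPM, Batf3-/- over WT, in C6 for all cells (black) and for S and G2M cells only (red), with exact 95% counting intervals. The grey band spans the 5% and 95% points of 7045 genes (-0.55 to 0.59); Cd209a lies at 3.23 and Clec12a at -0.99.

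Among the Batf3-/- C6 cells, 164 had a Cd209a UMI after thinning to 2000 UMIs and 563 did not. Before thinning 474 of the 727 cells had one, so many of the 563 hold the transcript and contrasts are blurred. The cDC1 genes Xcr1, Clec9a and Naaa did not set the groups apart in one direction, but this split cannot show that the groups are alike. Only part of the cDC1 and cDC2 marker lists is given here. Xcr1, a cDC1 chemokine receptor, was at 43.1 CPM (35.8 to 51.6) with and 46.3 CPM (42.3 to 50.6) without, Clec9a at 82.7 and 81.9 CPM, and Naaa at 126 and 91.8 CPM. The cDC2 genes Itgam and Sirpa were higher in cells with Cd209a, with Itgam at 35.9 CPM (29.2 to 43.7) against 21.6 (18.9 to 24.6) and Sirpa at 32.3 (26.0 to 39.8) against 22.1 (19.4 to 25.1). Lyz2 was at 376 and 219 CPM. So were other lectins of the set, with Clec4a1 at 23.0 against 13.6 CPM and Clec10a at 7.19 against 1.498. All Batf3-/- C6 cells together held 36 Clec10a UMIs, 58.3% of them in 5 cells. The cells with Cd209a were less often in S or G2M, at 64.6% against 76.7%. Across C6 as a whole, 6 cDC1 genes summed to 2249 CPM in the WT and 466 CPM in the Batf3-/- library, and 5 cDC2 genes to 21.5 and 62.6 CPM.

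The 31 Batf3-/- cells of C4 gave a similar picture for Cd209a from few counts. The gene was at 106 CPM (78.9 to 140) against 14.7 CPM in WT C4, a log2 ratio of 2.86 (2.41 to 3.28). These were 50 UMIs in 14 cells, and 5 cells held 70.0% of them. The ratio was 3.73 without the cells Scrublet marked, and within S and G2M, where 5 Batf3-/- cells held 1 UMI, it was -1.08. Of the 2 lectins that passed the filter in C4, 1 was at least 2-fold higher, beside 4.97% of 6761 genes. In C12, also with 31 Batf3-/- cells, Cd209a pointed the other way, with an interval that included 0. Cd209a was at 24.3 CPM in WT and 10.8 CPM in Batf3-/- cells there (log2 ratio -1.16, -3.47 to 0.44), from 72 and 3 UMIs. Of the 4 lectins that passed the filter in C12, 1 was at least 2-fold higher and 2 were lower, beside 6.26% and 7.37% of 6258 genes.

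In the large clusters outside cDC1 most ratios were smaller. In C2 none of the 9 genes differed 2-fold, where 0.0575% of 6959 genes were higher and 0.316% lower by that much. Of the 9, 4 lay outside the 5% and 95% points of all genes (-0.33 and 0.28). Clec12a was at 179 CPM (170 to 188) in WT and 94.8 CPM (89.98 to 99.8) in Batf3-/- cells, a log2 ratio of -0.91. Clec4a3 was at 200 and 142 CPM (-0.49), Cd209a at 669 and 524 (-0.35), and Clec4n at 12.8 and 19.8 CPM (0.63). The 4 neutrophil genes summed to 69.02 CPM in WT C2 and 1.11 CPM in Batf3-/- C2, and their part in these differences was not tested. In C3 the ratio of Cd209d was -0.37, but 0.90 within S and G2M cells (76 WT and 269 Batf3-/- UMIs), and Cd209a did not differ beyond its counting interval (-0.02, -0.10 to 0.06). Clec12a was also lower in Batf3-/- C11, at 82.5 against 135 CPM (-0.71, but 0.49 within S and G2M cells from 8 WT and 12 Batf3-/- UMIs), C8 (-0.52) and C1 (-0.66). In C7 the ratio was -0.29 (-0.51 to -0.07), within the span of all genes there. The interval of Clec12a included 0 in C0 (0.25, -0.05 to 0.54), C3 (-0.05, -0.18 to 0.07), C5 (0.17, -0.07 to 0.42) and C10 (-0.18, -0.59 to 0.24). In Batf3-/- pDCs Clec12a was at 422 against 312 CPM, and in C15 at 213 against 156 CPM. Clec4n in C0 was at 7.79 CPM (6.67 to 9.06) in WT and 16.2 CPM (14.5 to 17.96) in Batf3-/- cells, 2.08-fold higher, where 0.155% of the 7095 genes in C0 were at least 2-fold higher. Marker sums in C0, WT first, were 92.6 and 143 CPM for mature DC genes, 35.7 and 49.5 for cDC2b and 706 and 626 for cDC2a. Their part in the Clec4n difference was not tested.

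Larger ratios were found in small clusters. In C13, which the study calls NK, ILC and T cells, Cd209a was at 57.5 CPM from 89 UMIs in WT and 156 CPM from 180 UMIs in Batf3-/- cells, a log2 ratio of 1.44 (1.07 to 1.83). Clec10a was at 9.04 and 26.9 CPM (1.57, 0.62 to 2.60) and Clec4a3 at 16.1 and 39.9 CPM (1.31, 0.57 to 2.07). In this cluster 1.65% of 7841 genes were at least 2-fold higher in the Batf3-/- library. These UMIs came from few cells, since 5 Batf3-/- cells held 52.8% of those of Cd209a, 90.3% of those of Clec10a and 69.6% of those of Clec4a3. The C13 cells labelled T or NK, 143 of 241 WT and 62 of 146 Batf3-/- cells, held only 3 Cd209a UMIs in each library. The 5 NK and T genes summed to 1918 CPM in WT and 1579 CPM in Batf3-/- C13, and the 5 cDC2 genes to 143 and 187 CPM. The part of this mix of cells in the ratios was not tested. Without the cells Scrublet marked, 41 of 241 WT and 4 of 146 Batf3-/- cells, the ratios were 3.08, 2.74 and 4.39. In the pDCs Clec4a3 was lower in the Batf3-/- library, at 12.5 against 33.3 CPM (-1.42, -2.42 to -0.52), where 5 WT cells held 51.9% of 52 UMIs, and the ratio was -3.41 without the cells Scrublet marked. The 4 cDC2b genes summed to 626 CPM in WT and 255 CPM in Batf3-/- pDCs. Most of this was Lyz2 (517 and 129 CPM), while Ccr2 was at 71.1 and 107 CPM. Their part in the Clec4a3 difference was not tested.

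C2 holds cells that SingleR labelled DC (552 WT and 1040 Batf3-/-) and cells it labelled monocyte (384 and 480), and the lectins differed between them. The labels rest on the same transcripts, so this is a description. Cd209a was at 469 CPM in WT cells labelled DC and 992 CPM in those labelled monocyte, and at 382 and 859 CPM in the Batf3-/- library. Clec4a3 was at 137 and 300 CPM in WT and at 92.6 and 260 CPM in Batf3-/- cells. Clec10a, Clec12a, Clec4a1, Clec4a2 and Clec4n were likewise higher in the monocyte-labelled cells of both libraries, with intervals of the log2 ratio above 0. Clec4a4 was the reverse, at 25.1 CPM in DC-labelled and 5.01 CPM in monocyte-labelled WT cells, and at 16.9 and 7.67 CPM in Batf3-/- cells. Cd209d was higher in monocyte-labelled cells in WT (24.4 against 9.47 CPM) and not distinguishable in Batf3-/- cells (13.8 and 13.1 CPM). The WT and Batf3-/- difference in Clec12a was present within both labels, at 138 and 69.8 CPM in DC-labelled cells and at 244 and 154 CPM in monocyte-labelled cells.

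**Figure D5:**
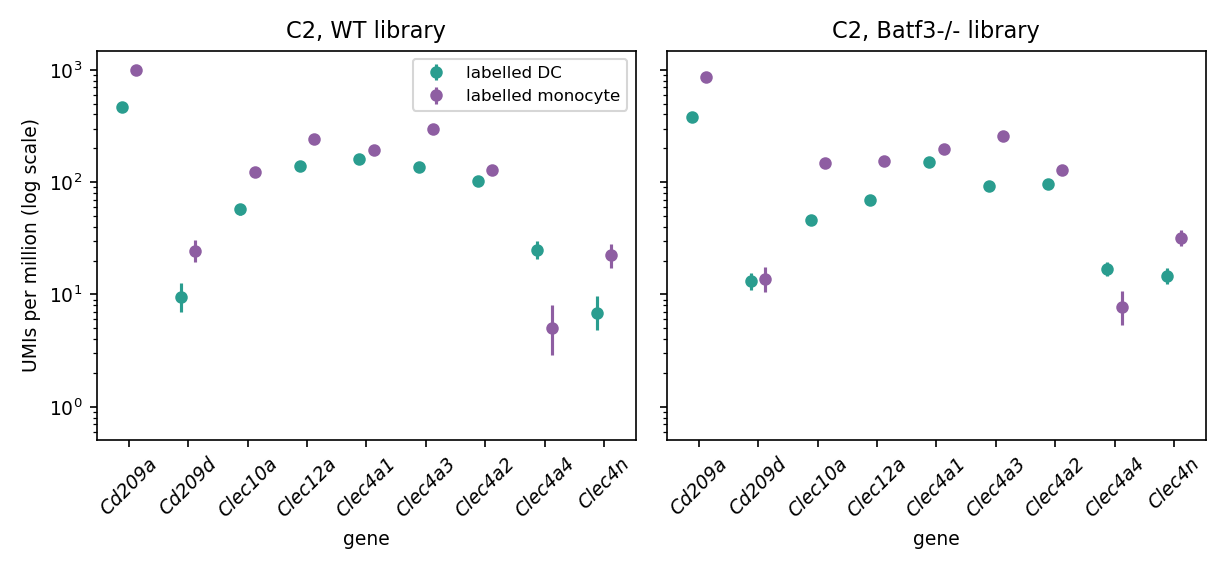
Points give the level in CPM on a log scale of each lectin gene in C2 cells labelled DC (green) and monocyte (purple) by SingleR, WT left and Batf3-/- right, with exact Poisson 95% intervals. Clec4a4 is lower in monocyte-labelled cells in both libraries (5.01 and 7.67 CPM), and Cd209a is higher (992 and 859 CPM).

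Other C-type lectins were taken from a fixed list, of which 25 were measured and 16 reached 20 CPM in a cluster. Of these 16, 10 had their highest WT cluster outside cDC1, beside 75.2% of all genes. In WT C4, 4 of the 10 that passed the filter were at least 2-fold higher than in the Sirpa+ pool (Clec9a, Ly75, Cd207 and Clec1b) and 5 were lower (Clec4b1, Clec2i, Cd302, Cd69 and Cd72), beside 4.95% and 11.8% of all genes. Clec4b1, which lies between Clec4a4 and Clec4a2, followed Cd209a to C2, with 116 CPM in WT and 53.3 in Batf3-/- cells. Clec4b2, which lies between Clec4a2 and Clec4n, was instead at 18.97 CPM in C4 and 0.332 CPM in the Sirpa+ pool. Mgl2, the paralog of Clec10a, was at 134 and 135 CPM in C16 and at 61.3 and 75.1 in C2. The mannose receptor gene Mrc1 was highest in C11, at 61.4 and 39.5 CPM, and Clec4e (mincle) in C15, at 43.6 and 52.7 CPM. In C6, 3 of the 7 other lectins that passed the filter were at least 2-fold lower in the Batf3-/- library (Clec9a, Ly75 and Cd207) and 1 was higher (Cd69), beside 2.14% and 1.97% of all genes. Cd207 had 541 UMIs in WT C6 and none in Batf3-/- C6.

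All 17 genes of a chosen list of signalling partners were measured. They are adaptors, kinases, phosphatases and related genes, and their link to each receptor was not tested. In C6, 14 passed the filter, of which 3 were at least 2-fold higher in the Batf3-/- library and 0 lower, beside 1.97% and 2.14% of all genes. Their median log2 ratio was 0.28 against 0.01 over all genes. These 3 were the FcRγ gene Fcer1g (131 and 488 CPM, log2 ratio 1.89), the kinase gene Prkcd (73.6 and 180 CPM) and the SHP-1 gene Ptpn6 (122 and 266 CPM). Syk was at 32.5 and 40.5 CPM and Card9 at 5.11 and 6.91 CPM. In WT C4, 0 of the 15 that passed were at least 2-fold higher than in the Sirpa+ pool and 5 were lower (Fcer1g, Tyrobp, Syk, Malt1 and Ptpn6), beside 4.95% and 11.8% of all genes, with a median of -0.58 against -0.23. Fcer1g differed most, at 126 CPM in C4 and 1129 CPM in the pool.

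Among the 7635 genes that averaged 10 CPM or more over clusters, those most like each lectin over the 19 WT clusters differed by receptor. Itgam (CD11b), Sirpb1b and Lst1 were nearest to Clec4a1, with Pearson r of 0.96, 0.95 and 0.93. Sirpb1a (0.94), Ifitm6 (0.91) and Gm9733 (0.90) were nearest to Clec4a2, and Ube2e2 (0.98), Gm15261 (0.97) and Npl (0.95) to Clec4a4. Clec4a3 had Clec4a1, Lst1 and Cebpd, at 0.92, 0.92 and 0.91. For Clec10a these were Mgl2 (0.92), Lgals3bp and Sdc4 (0.78 each). The nearest genes were less close for Cd209a (Gm5547 0.84, Rgl1 0.83, Cebpa 0.83), Cd209d (Siglech 0.83 and Snx18 0.79 among its nearest), Clec12a (Gng12 0.84, Scarb2 0.81, Psap 0.80) and Clec4n (Ctsc, Clec4a3 and Axl, 0.80 each). For Clec12a the value of Gng12 held in the Batf3-/- clusters (0.87), whereas Gm5547 was at 0.43 to Cd209a and Ctsc at 0.46 to Clec4n there. Of the 27 values, 13 moved by more than 0.1 in the Batf3-/- clusters and 14 did not. Among the 13 were Rgl1 to Cd209a (0.33), Cebpd to Clec4a3 (0.57) and Itgam to Clec4a1 (0.78). The Batf3-/- values cover 15 clusters. The cDC1 clusters C4, C12, C17 and C18 count among the 19 WT clusters but held too few Batf3-/- cells. The values of the libraries thus rest on different sets of clusters. The part of the missing cDC1 clusters in these changes was not tested. The clusters of a library share its preparation and depth, and these values are descriptions over clusters.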

How the data were processed

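CITE-seq libraries of sorted splenic DCs, 1 from WT and 1 from Batf3-/- mice, had been processed by the authors with bcl2fastq 2.2.0, Cell Ranger against GRCm38 and Seurat 3.0.5, and the libraries had been aggregated to even their depth. The raw tables were deposited as counts of UMIs. The normalized tables that the authors deposited are on a natural log scale (counts scaled to 10000 per cell, 1 added, then logged) and served only as a check: over 730 rows the largest difference from this formula was 6.2e-15. The mitochondrial and ribosomal share of each cell is deposited as a fraction. The cell cycle values are the score of the authors' Seurat run, used through the deposited phase. Clusters and SingleR labels are the deposited ones. Antibody counts were not used here.

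Levels, ratios and shares were computed in Python 3.11.15 with numpy 2.4.6, scipy 1.17.1 and pandas 2.3.3, and drawn with matplotlib 3.10.9. UMIs were summed per cluster and library and divided by all UMIs of those cells. The library totals were 122530055 (WT) and 114517073 (Batf3-/-) UMIs, with 753 to 37040 and 741 to 32835 per cell. Poisson intervals, the binomial split of 2 counts and Clopper-Pearson intervals are exact, at 95%, and cover only the error of counting. No test was made and no p-value given, since each genotype is 1 library. Ratios were formed for clusters with at least 25 cells in each library, and read against genes that averaged 10 CPM or more and had 20 UMIs or more. The average is over the 2 sides compared. A gene can thus pass through its level on 1 side alone, which favours a call as higher on that side. Where a library had no UMI, the floor was 3 counts. Thinning drew UMIs without replacement, to 1000 per cell (28 WT and 42 Batf3-/- cells left out) or, for genes read in the same cell, to 2000. Doublets were kept in the main values. Scrublet in scanpy 1.11.5, at an expected rate of 0.10, marked 541 WT (4.43%) and 244 Batf3-/- cells (2.01%), which an alternative left out. Positions come from GENCODE M21 and promoter windows from RefSeq (GRCm38.p6), aligned with biopython 1.88. The computations were tested on simulated data.

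The named genes were the 10 lectins, the 3 genes most like each of them over clusters, other lectins of at least 20 CPM in a cluster, and 17 signalling partners. A gene that this rule names for Cd209d is not reported here. These members and lists were chosen with earlier results of these data known. Alternatives changed the weighting of cells, the total, the fold, doublets, cell cycle phase, depth and the clusters compared. Leaving out cells whose barcode occurs in both libraries, cells labelled other than DC, or the cell with the most UMIs of a gene in each library was chosen after seeing the data.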

Additional observations from a re-analysis of the deposited data

Results flagged for a closer look

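Over the conventional DC clusters C0 to C8 and C10 to C12, the log2 ratio of Batf3-/- over WT of 4 genes pointed one way in some clusters and the other way in others, each outside the 5% to 95% span of all genes in its cluster and with a counting interval that did not include 0. The difference between clusters was not tested, since each cluster has 1 library per genotype. The share of all genes that point both ways by this rule was not counted. The 4 genes are therefore listed without a background to read their number against. Cd209a was higher in the Batf3-/- library in C4 (2.86), C6 (3.23), C7 (0.29) and C10 (0.50), and lower in C0 (-0.50) and C2 (-0.35). In C4, 5 Batf3-/- cells held 70.0% of its UMIs, and in C10 1 Batf3-/- cell held 18.9% and 5 cells 41.2%. Without the cell of each library that held the most Cd209a UMIs, the ratio in C10 was 0.36, within the 5% to 95% span there (-0.46 to 0.40). Clec4a2 was higher in C6 (1.83) and lower in C1 (-0.43). Clec4a3 was higher in C3 (0.54) and lower in C2 (-0.49) and C8 (-0.47). Clec4n was higher in C0 (1.05), C2 (0.63), C5 (0.70) and C8 (0.89), and lower in C11 (-0.73), where 5 WT cells held 40.8% of its UMIs. Some of these ratios reversed within S and G2M or within G1, with values given below. They were Cd209a in C4 and C10, Clec4a2 in C1 and C6, and Clec4n in C8. Among the other clusters, Cd209a was also higher in C13 (1.44), C15 (1.00) and C16 (1.19), Clec4a2 in C15 (0.97), and Clec4a3 in C13 (1.31) and C16 (0.91), while Clec4a3 was lower in C14 (-1.42). Without such cells the C15 ratios were 0.85 for Cd209a and 0.82 for Clec4a2, within the span there (-0.97 to 0.88).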

How the results depend on the processing

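No paired analysis was possible because each genotype is 1 library, so the groups share fewer than 2 replicate numbers. The count of lectins at least 2-fold lower in WT cDC1 ran from 6 to 8 over 9 alternatives (8 as reported), and that of lectins highest outside cDC1 stayed at 9 in all 4. The count at least 2-fold higher in Batf3-/- C6 (4 as reported) ran from 0 to 6, and was 0 only within G1, where WT had 13 cells. The count at least 2-fold lower in Batf3-/- C6 (0 as reported) was 1 without the cells Scrublet marked, 1 within S and G2M, 1 at 1.5-fold, 1 without cells labelled other than DC, and 3 within G1. The share of all genes past the fold was not counted under these alternatives. Of 105 log2 ratios, none reversed with another weighting, total or centring or without shared barcodes, nor without the cell that held the most UMIs of the gene in each library. Within S and G2M, 7 reversed: in C1 Clec4a1 (0.013), Clec4a2 (0.055) and Clec4a4 (0.10), Cd209d in C3 (0.90), Cd209a in C4 (-1.08, from 1 Batf3-/- UMI), Clec4n in C8 (-0.55) and Clec12a in C11 (0.49). Within G1, 4 reversed: Clec4a2 in C5 (-0.43), Clec4a1 (-0.64) and Clec4a2 (-0.21) in C6, and Cd209a in C10 (-0.97). Most of these subsets hold few UMIs, but Cd209d in C3 had 76 WT and 269 Batf3-/- UMIs and Clec4a1 in C1 had 49 and 119. The cause was not tested. Without the cells Scrublet marked, the ratio of Cd209a in C4 was 3.73 and that of Clec4a1 in C6 was 2.17. Shares of cells with a UMI depend on depth, and 50 of 52 moved without thinning. Levels of a few UMIs, as for Clec4n and Clec10a in cDC1, are limited by counting.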
